A study of Homo sapiens with 15 samples.

Results

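The genes described here are 32 genes of cholesterol and fatty acid synthesis that are under the control of the sterol regulatory element-binding proteins (SREBPs), or that belong to the machinery of these factors. They were taken by symbol from the 58676 genes of the count table. The rule itself uses no measured value, but the list was drawn up with earlier results of these data known. All 32 were found once each, and all 32 were among the 14461 genes with enough counts to be tested. By role, 7 act between acetyl-CoA and farnesyl diphosphate, 11 act in the squalene and sterol steps, 6 control the pathway or carry sterol, and 8 act in fatty acid synthesis and desaturation.

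The libraries were made from total RNA of PATU-8988T, an established line of human pancreatic cancer cells kept in medium with 10% fetal bovine serum. There were 5 groups of 3 libraries: THZ1 at 100 nM for 24 h, THZ1 at 100 nM for 4 h, YKL-5-124 at 100 nM for 24 h, YKL-5-124 at 100 nM for 4 h, and the vehicle DMSO at 0.1%. Both compounds are described in the series as inhibitors of CDK7, the kinase of the transcription factor TFIIH, and THZ1 is also known to bind CDK12 and CDK13. No collection time is labelled for DMSO, so its 3 libraries were the control of all 4 treated groups, and time in culture could not be told apart from time of treatment. Whether replicates were separate cultures is not labelled, and p-values therefore reflect spread among these libraries, which may be technical. All libraries came from 1 cell line, without the stromal and immune cells of a tumour.

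SREBPs are made as membrane proteins of the endoplasmic reticulum. When membrane sterol is low, the escort protein SCAP carries them to the Golgi, where proteases release a fragment that enters the nucleus and binds sterol regulatory elements, usually beside binding sites of NF-Y or SP1. When sterol is plentiful, INSIG1 and INSIG2 hold SCAP in the endoplasmic reticulum, and INSIG1 is itself a target of the SREBPs. SREBP-2, encoded by SREBF2, mainly drives cholesterol synthesis, and the SREBP-1 proteins, encoded by SREBF1, mainly drive fatty acid synthesis. Serum supplies cultured cells with lipoprotein cholesterol, and tumour cells often make much of their own fatty acid.

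The libraries held 15567057 to 18114103 counts after 24 h of THZ1, 18464691 to 21749763 after 4 h of THZ1, 18373599 to 22184092 after 24 h of YKL-5-124, 18929158 to 22869590 after 4 h of YKL-5-124 and 19651529 to 20517571 in DMSO. Levels below are CPM, counts relative to the library total, scaled by TMM factors, so they are shares of each library's RNA and not amounts per cell. Fewer cells of a type and less RNA per cell cannot be told apart in such bulk samples. The THZ1 24 h libraries stood apart from the others in makeup, with a mean TMM factor of 0.544 against 1.19 in DMSO and with 21.0% to 23.4% of counts in ribosomal protein genes against 9.12% to 11.7% in DMSO. The slope of log2 CPM on log10 exonic length over genes was 1.31 to 1.57 after 24 h of THZ1 and 2.30 to 2.92 in the other 12 libraries. In each group 1 library was least like the other 2 by chi-square over all genes: replicate 1 of THZ1 24 h, THZ1 4 h and YKL-5-124 4 h, replicate 3 of YKL-5-124 24 h and replicate 2 of DMSO. Counts without these 5 libraries are given beside the results. The 2 libraries kept in each group were the most alike by that measure. Spread within groups was lowered by this choice, so p-values in that setting run low and its counts are no independent check. The kept libraries of the 4 h groups had slopes of 2.65 to 2.86. Those of DMSO and YKL-5-124 24 h had slopes of 2.44 to 2.53. Slope and group therefore cannot be told apart where the former are compared with the latter in that setting. The epithelial markers KRT8 (791 to 3100 CPM) and KRT18 (238 to 538 CPM) were high and EPCAM was at 10.1 to 68.4 CPM, while the duct keratin KRT7 was at 0.158 to 4.39 CPM and KRT19 was at 0 in 13 of the 15 libraries. Summed over these 5 markers, the epithelial level was 2720 to 3550 CPM after 24 h of THZ1 and 1350 to 1640 CPM in DMSO. Of 15 markers of acinar, islet, immune, endothelial, fibroblast, fat and liver cells, 8 were at 0 in every library, among them PRSS1, INS, CD3E and ADIPOQ. The highest levels among these 15 markers were 7.25 CPM for COL1A1 and 1.28 CPM for CDH5. The sum of the fibroblast markers COL1A1 and PDGFRB was 1.45 to 7.45 CPM after 24 h of THZ1 and 0.133 to 0.59 CPM in DMSO, and its part in any result was not tested.

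In DMSO the 32 genes together took 0.28% ± 0.0155 of all counts (SD, n = 3). Per kilobase of exon, SCD, the desaturase that makes oleic acid, had the highest level among them in DMSO, 80.2 ± 11.9 CPM per kb (SD, n = 3). PMVK (phosphomevalonate kinase) followed at 45.7 ± 4.6 CPM per kb. SQLE (squalene epoxidase, an oxygen-requiring and rate-limiting step) came next at 35.8 ± 4.35, ACLY (ATP citrate lyase) at 33.3 ± 1.12 and EBP (a sterol isomerase) at 32.6 ± 8.27 CPM per kb, and the last 3 did not differ beyond their spread. The lowest levels in DMSO were those of CYP51A1 (lanosterol demethylase) at 1.41 ± 0.102, FADS2 (delta-6 desaturase) at 1.75 and HSD17B7 (a sterol ketoreductase) at 2.18 CPM per kb. SREBF2 stood at 12.7 ± 2.06 and SREBF1 at 2.84 ± 0.814 CPM per kb, and the libraries of both genes did not overlap on this scale. FASN (fatty acid synthase) was the least even of the 32 genes, with a 3.27-fold gap between its highest and lowest DMSO libraries.

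**Figure D1:**
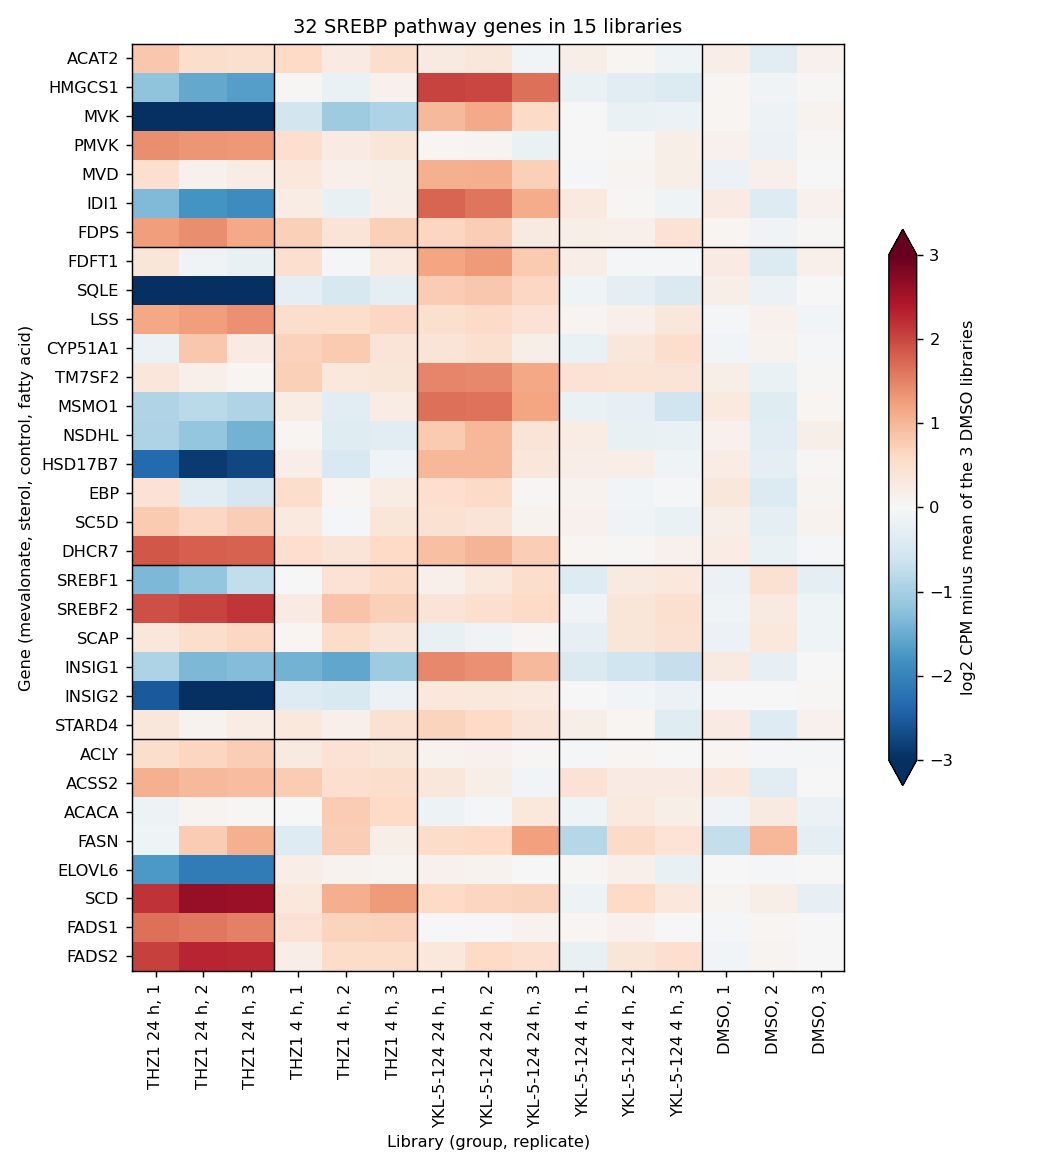
Level of the 32 genes (rows, by role) in the 15 libraries (columns), as log2 CPM minus the mean of the 3 DMSO libraries; red is above and blue below DMSO, and colours are capped at 3 log2 units. After 24 h of THZ1 the rows split into red and blue, after 24 h of YKL-5-124 the mevalonate and sterol rows are mostly red, and the 4 h columns are paler; with library totals in place of TMM factors, the faint red of ACAT2, SC5D, SCAP, ACLY and ACSS2 after 24 h of THZ1 becomes blue.

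After 24 h of YKL-5-124, 15 of the 32 genes rose against DMSO and 0 fell, by the quasi-likelihood test of edgeR at an adjusted p of 0.05 (Benjamini-Hochberg, over all genes tested). Of all genes tested, 8.92% rose and 12.7% fell in this comparison. The median log2 fold change was 0.51 over the 32 genes and -0.04 over all genes tested. By role, 5 of 7 genes from acetyl-CoA to farnesyl diphosphate, 8 of 11 in the squalene and sterol steps, and 2 of 6 in control and transport rose, while 0 of 8 fatty acid genes passed. DESeq2 called 2 of the 8 higher, where it called 11.1% of all genes tested higher. At an unadjusted p under 0.05 in edgeR, 2 fatty acid genes were higher (SCD and FADS2). The share of all genes at that unadjusted threshold was not counted, so such counts have no base rate beside them. None of the 32 genes fell under any alternative setting tried: DESeq2 called 0 lower, where it called 15.2% of all genes lower, and 0 were lower at an unadjusted p under 0.05. Together the 32 genes took 0.487% ± 0.0155 of the counts after 24 h of YKL-5-124, against 0.28% ± 0.0155 in DMSO (SD, n = 3 each).

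HMGCS1, which makes HMG-CoA, an early intermediate of the mevalonate pathway, moved most. It lies at chr5:43289395-43313512 (GRCh38, ENSG00000112972). It had 244, 239 and 189 CPM in the YKL-5-124 24 h libraries, against 62.7, 55.8 and 61.9 CPM in DMSO, and the lowest treated library was above all DMSO libraries. The log2 fold change was 1.90 ± 0.137 (SE), with an adjusted p of 8.62e-07. IDI1, the isomerase that makes the reactive isoprene unit, had 283, 258 and 183 CPM after YKL-5-124 and 99.7, 65 and 92.9 CPM in DMSO. The IDI1 change was 1.49 ± 0.208 on the log2 scale (adjusted p = 0.000179). MSMO1, a methyl sterol oxidase, had 143, 140 and 103 CPM after YKL-5-124 and 55.9, 35.3 and 47.4 CPM in DMSO, with a log2 fold change of 1.48 ± 0.188 (adjusted p = 8.72e-05). In each of these 3 genes replicate 3 of YKL-5-124 24 h was the lowest treated library, and no treated library overlapped the DMSO range.

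The other mevalonate enzymes that rose were MVK (mevalonate kinase, 0.91), MVD (diphosphomevalonate decarboxylase, 0.97) and FDPS (farnesyl diphosphate synthase, 0.57 on the log2 scale). PMVK, the kinase between MVK and MVD, had a log2 fold change of -0.02 with a 95% interval of -0.26 to 0.21, and ACAT2, which makes acetoacetyl-CoA, had 0.18 with an interval of -0.16 to 0.51. Among the sterol steps, TM7SF2, a sterol reductase, rose by 1.36 on the log2 scale, although it overlaps VPS51 on the same strand, and FDFT1, squalene synthase, by 1.07. SQLE had 258, 269 and 234 CPM in the YKL-5-124 24 h libraries, against 172, 135 and 155 CPM in DMSO, with no overlap and a log2 fold change of 0.72 ± 0.111 (adjusted p = 0.000391). LSS, DHCR7, NSDHL and HSD17B7, which act in the later ring-forming and ring-trimming steps, rose by 0.50 to 0.88. HSD17B7 has 2 named pseudogenes in the table, 1 of which passed the count filter, so its reads could be split between copies. The calls of 3 genes that rose were lost when single libraries were left out: NSDHL without YKL-5-124 24 h replicate 2 (adjusted p = 0.0743), HSD17B7 without DMSO replicate 2 or 3 or YKL-5-124 24 h replicate 1 or 2 (adjusted p = 0.0542 to 0.0743), and STARD4 without the same 4 libraries (adjusted p = 0.0655 to 0.116). CYP51A1, EBP and SC5D did not pass, with log2 fold changes of 0.36, 0.36 and 0.31.

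In the control group INSIG1 had 57.3, 54.7 and 41.8 CPM after 24 h of YKL-5-124, against 25.4, 17.7 and 20.9 CPM in DMSO. All treated libraries of INSIG1 were above all DMSO libraries, with a log2 fold change of 1.26 ± 0.175 (adjusted p = 0.00017). STARD4, a carrier of sterol between membranes, rose by 0.53. SREBF2 had 125, 134 and 144 CPM after YKL-5-124 and 87.3, 114 and 86.7 CPM in DMSO. The SREBF2 libraries did not overlap, but the log2 fold change of 0.48 ± 0.169 missed the threshold (adjusted p = 0.0543). Without DMSO replicate 2 it was 0.62, with an adjusted p of 0.0225. SREBF1 had 24.8, 27.6 and 32.2 CPM after YKL-5-124, overlapping DMSO libraries at 19.6, 30.3 and 18.5 CPM, and its log2 fold change of 0.31 did not pass (adjusted p = 0.389). SCAP had 77.8, 83.6 and 92.3 CPM after YKL-5-124 and 79.9, 112 and 83 CPM in DMSO, with overlapping libraries and a log2 fold change of -0.12 (95% interval -0.51 to 0.27). INSIG2, the second INSIG isoform, had 21.4, 21.5 and 21 CPM after YKL-5-124 and 17, 17 and 17.4 CPM in DMSO, a small gap of 0.31 ± 0.141 on the log2 scale that did not pass (adjusted p = 0.132).

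Among the fatty acid genes, FASN had 63.9, 66.5 and 103 CPM after 24 h of YKL-5-124, against 26.7, 87.4 and 36.1 CPM in DMSO. DMSO replicate 2 lay inside the treated range, and the log2 fold change of 0.63 had a 95% interval of -0.32 to 1.59 (adjusted p = 0.353). Without DMSO replicate 2 it was 1.30, with an adjusted p of 0.0409. That library had the steepest slope on exonic length of all, 2.92, against 2.53 in both other DMSO libraries, and its part in the FASN value was not tested beyond leaving it out. SCD had 642, 668 and 678 CPM after YKL-5-124, against 452, 481 and 358 CPM in DMSO, with no overlap and a log2 fold change of 0.62 ± 0.223 (adjusted p = 0.0581). FADS2 gave 0.47 ± 0.165 (adjusted p = 0.0542). The other 5 fatty acid genes (ACLY, ACSS2, ACACA, ELOVL6 and FADS1) lay between 0.04 and 0.13.

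Without the 5 libraries that stood apart, 22 of the 32 genes rose after 24 h of YKL-5-124 and 0 fell, among them 10 of 11 sterol genes and 3 of 8 fatty acid genes, where 16.1% of all genes tested rose and 21.8% fell. Libraries that did not overlap with DMSO were above it for 20 of the 32 genes and below it for 0, against 17.4% and 22.1% of all genes tested.

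**Figure D2:**
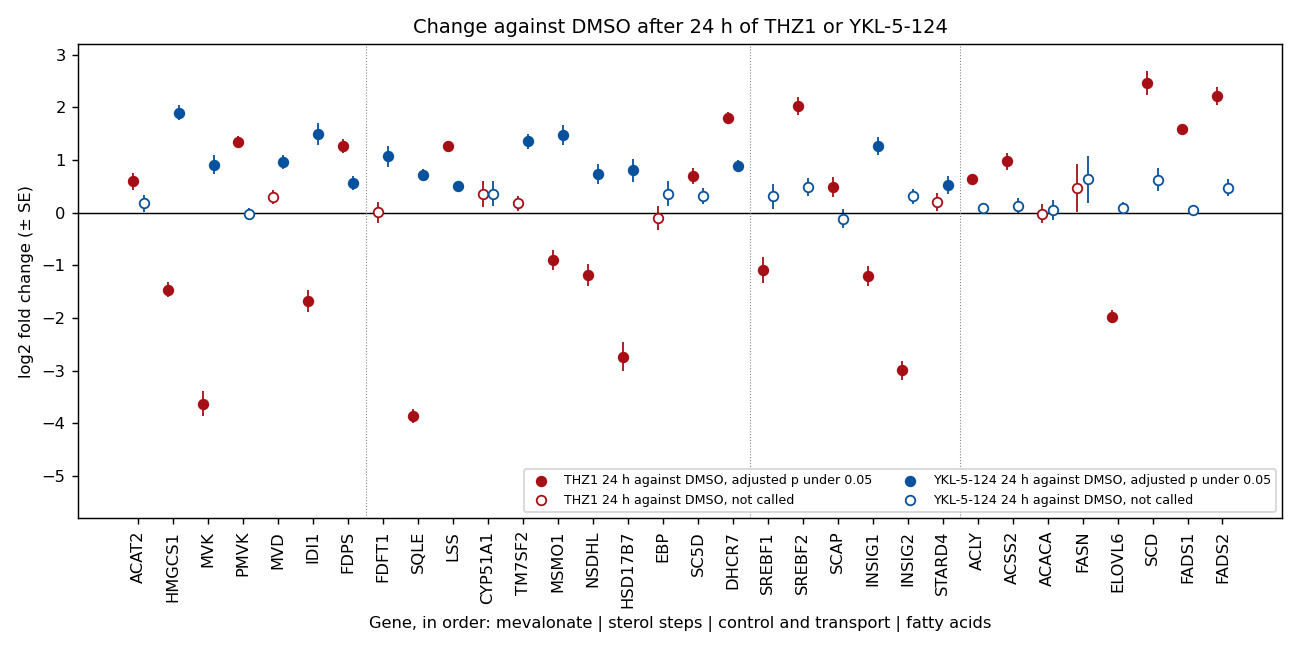
Log2 fold change against DMSO (± SE, n = 3 libraries per group) of each of the 32 genes after 24 h of THZ1 (red) and 24 h of YKL-5-124 (blue), ordered by role; filled points passed an adjusted p of 0.05. HMGCS1 reads -1.46 after THZ1 and 1.90 after YKL-5-124, and SCD 2.46 and 0.62; both treatments share the same DMSO libraries, and the red points of ACAT2, SC5D, SCAP, ACLY and ACSS2 turn negative with library totals.

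Promoter sequence was examined for motifs known from SREBP targets, because many of the genes rose together after 24 h of YKL-5-124. Windows of 250 bases before and 50 bases after the start came from RefSeq (GRCh38.p14), and 39 windows of 28 of the 32 genes were found. FASN, SQLE, ACAT2 and FDFT1 had no entry there. The sterol element TCACNCCAC was searched on both strands and stood in 1 of the 39 windows (2.56%), that of SREBF2, against 1.13% of all 35116 windows. The NF-Y box CCAAT stood in 64.1% of the windows of these genes and in 34.6% of all windows, and the GC box GGGCGG in 89.7% and 45.0%. The E-box CACGTG stood in 12.8% of the windows of these genes and in 7.26% of all windows. Overlaps between the 4 motifs were not removed, and a match is a description of letters, not a site of binding. Among the genes that rose after 24 h of YKL-5-124, 14 of 17 windows (82.4%) held CCAAT, and among those that did not pass, 11 of 22 windows did. For the other motifs, in the same order, the shares were 88.2% and 90.9% (GC box) and 11.8% and 13.6% (E-box). The sterol element stood in 0 and 1 windows. The 17 windows came from 13 genes and the 22 from 15, so windows of the same gene are not independent. No difference between these shares was tested.

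The 250 bases before the start are shown for the gene of SREBP-2, for 3 genes that rose strongly after 24 h of YKL-5-124, and for MVK and PMVK, neighbouring kinases of the pathway that moved apart. Capitals mark the sterol element and CCAAT, which reads ATTGG on the other strand. All run 5′ to 3′ along the strand of the gene, in GRCh38.p14.
SREBF2, chr22:41832855-41833104, plus strand: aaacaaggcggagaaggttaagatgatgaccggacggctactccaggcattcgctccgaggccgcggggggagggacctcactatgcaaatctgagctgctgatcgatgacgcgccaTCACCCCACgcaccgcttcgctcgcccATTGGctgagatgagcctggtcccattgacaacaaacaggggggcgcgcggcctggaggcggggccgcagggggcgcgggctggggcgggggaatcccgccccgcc
HMGCS1, chr5:43313413-43313662, minus strand: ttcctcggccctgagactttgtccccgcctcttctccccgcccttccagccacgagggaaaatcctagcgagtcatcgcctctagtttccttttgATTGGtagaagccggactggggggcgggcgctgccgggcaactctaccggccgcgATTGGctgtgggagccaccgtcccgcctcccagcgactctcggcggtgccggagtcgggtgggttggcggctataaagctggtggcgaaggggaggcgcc
MSMO1, chr4:165327419-165327668, plus strand: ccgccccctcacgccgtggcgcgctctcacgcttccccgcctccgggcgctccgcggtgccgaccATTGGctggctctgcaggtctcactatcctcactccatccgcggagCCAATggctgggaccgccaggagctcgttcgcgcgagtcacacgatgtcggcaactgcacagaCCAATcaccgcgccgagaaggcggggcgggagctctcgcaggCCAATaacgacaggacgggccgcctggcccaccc
INSIG1, chr7:155297628-155297877, plus strand: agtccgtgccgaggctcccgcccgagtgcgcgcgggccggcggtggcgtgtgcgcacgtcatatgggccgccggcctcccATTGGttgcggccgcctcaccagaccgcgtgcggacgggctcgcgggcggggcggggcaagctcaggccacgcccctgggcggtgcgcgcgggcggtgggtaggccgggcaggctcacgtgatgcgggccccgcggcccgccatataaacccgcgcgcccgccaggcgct
MVK, chr12:109573544-109573793, plus strand: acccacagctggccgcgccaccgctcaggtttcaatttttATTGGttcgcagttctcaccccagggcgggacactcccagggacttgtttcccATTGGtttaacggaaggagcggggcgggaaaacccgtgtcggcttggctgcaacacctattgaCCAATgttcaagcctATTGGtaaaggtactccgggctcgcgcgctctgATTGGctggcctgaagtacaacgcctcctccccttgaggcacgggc
PMVK, chr1:154936720-154936969, minus strand: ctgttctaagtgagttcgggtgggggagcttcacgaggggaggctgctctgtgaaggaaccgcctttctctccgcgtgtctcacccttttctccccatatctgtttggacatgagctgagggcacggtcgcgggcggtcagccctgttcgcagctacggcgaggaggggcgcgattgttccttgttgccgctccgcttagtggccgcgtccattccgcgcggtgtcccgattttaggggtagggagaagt

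The SREBF2 window held the sterol element starting 133 bases before the start and 1 CCAAT. MVK held 5 CCAAT boxes, MSMO1 4, HMGCS1 2, INSIG1 1 and PMVK 0. The starts in this table lie 26 to 539 bases from the starts of the same genes in the count table, so the windows need not hold the start used in these cells.

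After 24 h of THZ1, 13 of the 32 genes rose against DMSO and 11 fell, with 32.3% of all genes tested rising and 44% falling. The median log2 fold change was 0.24 over the 32 genes and -0.365 over all genes tested. The genes split within every role: 3 rose and 3 fell of 7 from acetyl-CoA to farnesyl diphosphate, 3 and 4 of 11 in the sterol steps, 2 and 3 of 6 in control and transport, and 5 and 1 of 8 in fatty acids. At 2-fold or more, 8 rose and 10 fell. Changes of that size were common, since the 25th and 75th percentiles of all genes tested were -1.722 and 1.049 on the log2 scale. With library totals in place of TMM factors the median of all genes moved to -1.49, and 6 of the 32 genes rose and 22 fell, where 15.7% of all genes tested rose and 64.9% fell. With RLE factors the median was -0.04, and 17 rose and 11 fell, where 37.7% and 37.8% of all genes did. Rises of ACAT2, SC5D, SCAP, ACLY and ACSS2 turned negative under library totals.

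SQLE fell most. It had 10.4, 11.2 and 10.2 CPM in the THZ1 24 h libraries, against 172, 135 and 155 CPM in DMSO, with a wide gap between the groups. The fall of SQLE measured -3.86 ± 0.13 on the log2 scale (adjusted p = 4.87e-12). MVK had 1.57, 1.84 and 0.939 CPM after THZ1, against 18.6, 16.1 and 19.1 CPM in DMSO, with a log2 fold change of -3.63 ± 0.244 (adjusted p = 2.21e-09). MVK overlaps MMAB on the opposite strand, whose mean level was 33.4 CPM, and the sources used here do not give the strand setting of the counting. INSIG2 had 2.9, 1.84 and 1.77 CPM after THZ1, against 17, 17 and 17.4 CPM in DMSO, a log2 fold change of -2.99 ± 0.175 (adjusted p = 4.79e-10). HSD17B7 (-2.73, with the pseudogene limit given above), ELOVL6 (the elongase of palmitate, -1.97), IDI1 (-1.68), NSDHL (-1.18) and MSMO1 (-0.90) also fell. HMGCS1 had 26, 20.6 and 19.1 CPM after THZ1, against 62.7, 55.8 and 61.9 CPM in DMSO, and fell by 1.46 on the log2 scale (SE 0.141, adjusted p = 1.41e-07).

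SCD rose most after 24 h of THZ1. It had 1930, 2610 and 2570 CPM in the treated libraries, against 452, 481 and 358 CPM in DMSO, with a log2 fold change of 2.46 ± 0.234 (adjusted p = 1.21e-07). FADS2 had 79.8, 93.8 and 93.3 CPM after THZ1, against 18.2, 20.4 and 19.3 CPM in DMSO, a log2 fold change of 2.21 ± 0.171 (adjusted p = 1.14e-08). FADS1, the delta-5 desaturase beside it, rose by 1.59. FADS1 and FADS2 overlap on opposite strands and FADS2 overlaps FEN1 on its own strand, so part of their reads may not be separable. DHCR7 (the last reductase of one branch of cholesterol synthesis, 1.79) and LSS (which closes the sterol rings, 1.26) rose among the sterol genes. PMVK (1.33) and FDPS (1.26) rose among the mevalonate genes. SC5D (0.70) and ACAT2 (0.59) also rose, but turned negative with library totals. FDPS has 8 named pseudogenes in the table, between which reads could be split, though 0 of them passed the count filter. FASN had 40.3, 75 and 91.9 CPM after THZ1, overlapping DMSO libraries at 26.7, 87.4 and 36.1 CPM. Its log2 fold change of 0.46 did not pass (95% interval -0.50 to 1.43, adjusted p = 0.358), and without DMSO replicate 2 it was 1.12 (adjusted p = 0.0276).

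The 2 SREBP genes moved in opposite directions after 24 h of THZ1. SREBF2 had 365, 388 and 419 CPM, against 87.3, 114 and 86.7 CPM in DMSO, and its log2 fold change was 2.03 ± 0.174 (adjusted p = 3.81e-08). SREBF1 had 8.7, 9.9 and 13.4 CPM, against 19.6, 30.3 and 18.5 CPM in DMSO, a log2 fold change of -1.09 ± 0.247 (adjusted p = 0.000864). With the slope on exonic length as a covariate the SREBF1 value was 0.48 (adjusted p = 0.186); that slope was lower in every THZ1 24 h library than in any other, so it and the treatment cannot be told apart. SCAP had 115, 131 and 139 CPM after THZ1, against 79.9, 112 and 83 CPM in DMSO, with a log2 fold change of 0.48 ± 0.184 (adjusted p = 0.0255). The SCAP call was lost without DMSO replicate 1 or 3 or THZ1 24 h replicate 2 or 3 (adjusted p = 0.0691 to 0.111) and was -0.65 with library totals. INSIG1 had 11.1, 8.27 and 8.56 CPM, against 25.4, 17.7 and 20.9 CPM in DMSO, a log2 fold change of -1.20 ± 0.187 (adjusted p = 2.88e-05). Both INSIG genes were below every DMSO library, and the gap was wider for INSIG2.

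**Figure D3:**
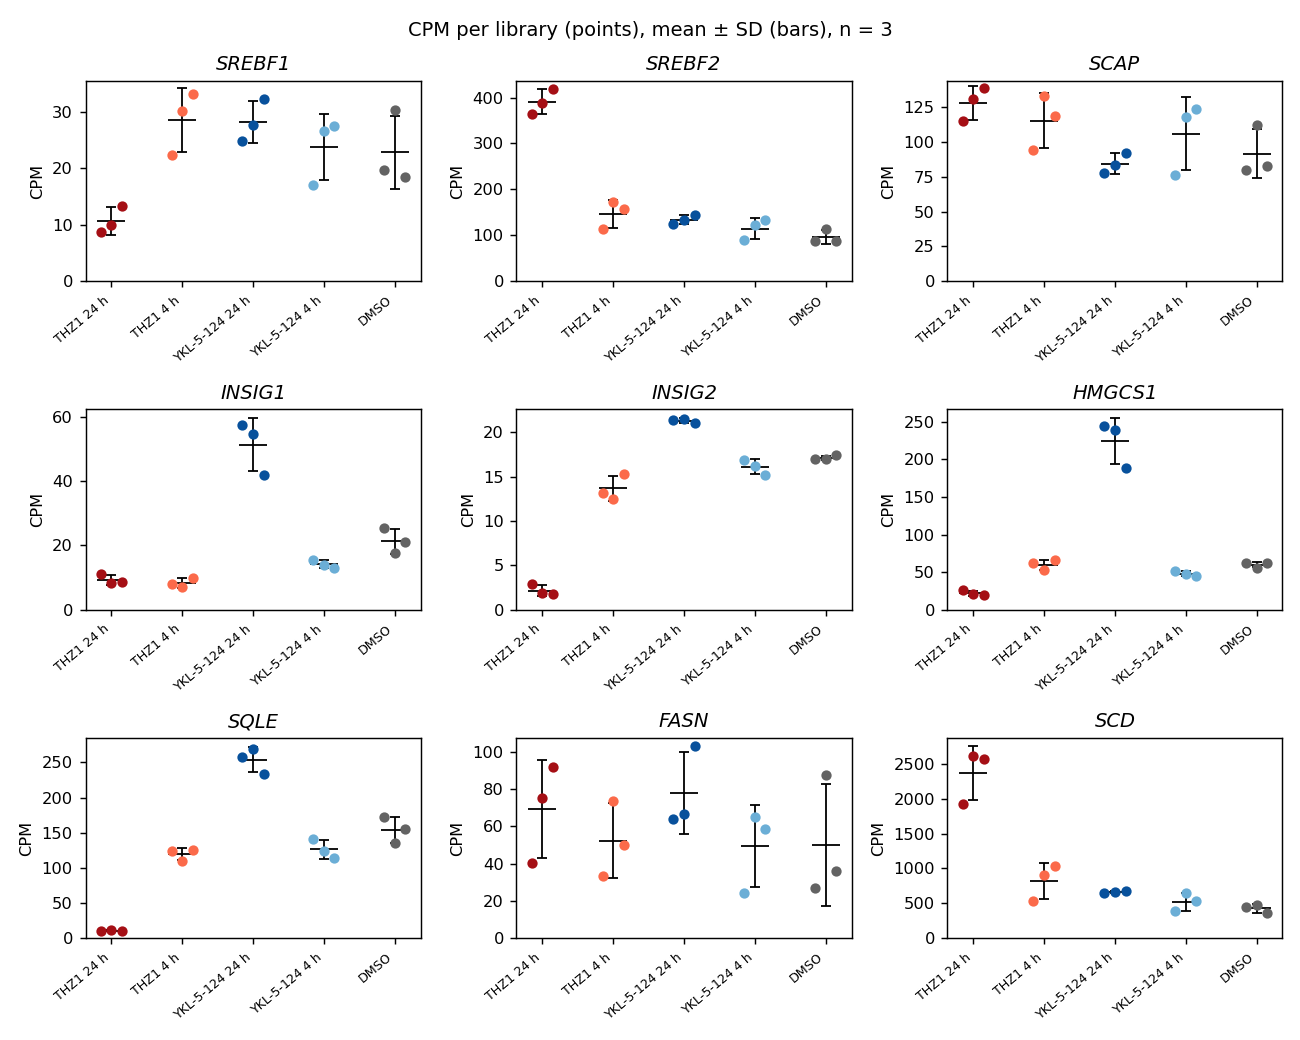
CPM of the 9 genes of control and of the main enzymes in each library (points), with mean ± SD (n = 3), by group from THZ1 24 h on the left to DMSO on the right; axes start at 0 and differ between panels. SREBF2 and SCD are highest after 24 h of THZ1, HMGCS1, SQLE and INSIG1 are highest after 24 h of YKL-5-124, and FASN overlaps between groups; these are TMM-scaled levels, and the higher SCAP after 24 h of THZ1 turns lower with library totals.

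Ratios of counts within a library do not depend on the scaling between libraries. The 6 pairs were chosen after the values were seen, and each was compared with DMSO in all 4 treated groups, 24 comparisons in all. With 3 libraries a group the smallest exact permutation p is 0.1, and adjusted over the 24 it was at least 0.141. SREBF2 to SREBF1 stood at 42, 39.2 and 31.4 in the THZ1 24 h libraries, against 4.46, 3.76 and 4.7 in DMSO. PMVK to MVK, consecutive kinases of 1 pathway, stood at 97.2, 78.9 and 154 after THZ1 and at 3.4, 3.24 and 3.15 in DMSO. LSS to SQLE, consecutive sterol steps, stood at 9.0, 8.86 and 10.6 after THZ1 and at 0.235, 0.34 and 0.254 in DMSO. SCD to ELOVL6, the desaturase and the elongase of saturated fatty acids, stood at 186, 323 and 320 after THZ1 and at 12.9, 14.1 and 10.3 in DMSO. In these 4 pairs every THZ1 24 h library was above every DMSO library, with geometric mean ratios 8.68, 32.4, 34.7 and 21.7 times those in DMSO (exact two-sided permutation p = 0.1 each, the smallest possible). After 24 h of YKL-5-124 the ratio of PMVK to MVK was 1.72, 1.56 and 1.91, below all DMSO libraries. INSIG1 to INSIG2 stood at 3.83, 4.5 and 4.82 after 24 h and at 0.597, 0.57 and 0.652 after 4 h of THZ1, against 1.49, 1.04 and 1.2 in DMSO, so the ratio was above DMSO at the later time and below it at the earlier one. DHCR7 to MSMO1 stood at 15.7, 13.9 and 14.7 after 24 h of THZ1, against 2.2, 2.58 and 2.18 in DMSO.

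**Figure D4:**
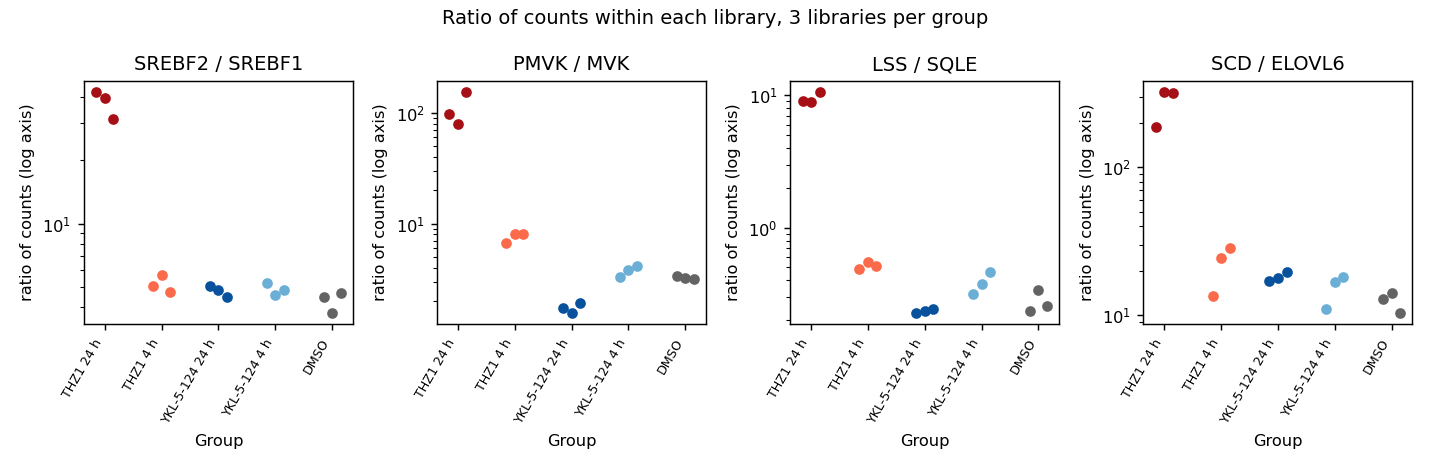
Ratio of the counts of 2 genes within each library (points, log axis) for 4 pairs, with 3 libraries per group from THZ1 24 h on the left to DMSO on the right. In each pair the THZ1 24 h libraries lie above all others, for example 31.4 to 42 for SREBF2 to SREBF1, against 3.76 to 4.7 in DMSO.

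Without the 5 libraries that stood apart, 16 of the 32 genes rose after 24 h of THZ1 and 13 fell, where 33.8% of all genes tested rose and 44.6% fell. Libraries of 13 genes lay wholly above and of 11 genes wholly below DMSO, against 32.5% and 44.7% of all genes tested.

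After 4 h of THZ1, 13 of the 32 genes rose against DMSO and 3 fell, with 16.9% of all genes tested rising and 25.1% falling. The median log2 fold change was 0.31 over the 32 genes and 0 over all genes tested, and 1 gene moved by 2-fold or more. The 5th and 95th percentiles of all genes tested were -2.394 and 0.737. Of the fatty acid genes 5 of 8 rose and 0 fell, of the mevalonate genes 3 rose and 1 fell of 7, of the sterol steps 4 rose and 1 fell of 11, and in control and transport 1 rose and 1 fell of 6. With library totals 3 rose and 5 fell, where 4.03% of all genes tested rose and 32% fell, and the median of all genes was -0.25. INSIG1 fell most, to 7.88, 7.11 and 9.96 CPM after THZ1, against 25.4, 17.7 and 20.9 CPM in DMSO, a log2 fold change of -1.36 ± 0.181 (adjusted p = 2.51e-05). MVK had 12.2, 8.54 and 9.31 CPM after 4 h of THZ1, against 18.6, 16.1 and 19.1 CPM in DMSO, a log2 fold change of -0.84 ± 0.188 (adjusted p = 0.00232). In both genes every treated library was below every DMSO library. SQLE was the third gene that fell, with 124, 110 and 125 CPM after THZ1 against 172, 135 and 155 CPM in DMSO. Its log2 fold change of -0.36 (adjusted p = 0.0166) was lost without DMSO replicate 1 or 3 or THZ1 4 h replicate 2 (adjusted p = 0.0502 to 0.0916).

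SCD rose most after 4 h of THZ1, to 531, 908 and 1030 CPM, against 452, 481 and 358 CPM in DMSO. Its log2 fold change was 0.94 ± 0.224 (adjusted p = 0.00346). CYP51A1 had 9.3, 10 and 7.59 CPM, against 5.46, 6.23 and 5.56 CPM in DMSO. Its log2 fold change of 0.64 ± 0.234 (adjusted p = 0.0391) was lost when any of 5 libraries was left out (all DMSO libraries and THZ1 4 h replicates 1 and 2, adjusted p = 0.053 to 0.11). CYP51A1 has 3 named pseudogenes in the table, 0 of which passed the count filter. SREBF2 had 113, 172 and 157 CPM after 4 h of THZ1, against 87.3, 114 and 86.7 CPM in DMSO. The lowest treated library lay within the DMSO range, and the log2 fold change was 0.62 ± 0.169 (adjusted p = 0.00827, and 0.0502 without THZ1 4 h replicate 3). The other genes that rose were ACAT2, PMVK, FDPS, LSS, TM7SF2, DHCR7, ACLY, ACSS2, FADS1 and FADS2, at 0.36 to 0.61. Of these, ACAT2, PMVK, TM7SF2 and FADS2 lost the call without at least 1 library each (adjusted p = 0.0503 to 0.154). ACAT2 overlaps TCP1 and SOD2 on the opposite strand, with mean levels of 710 and 136 CPM.

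HMGCS1 was at 62, 52.7 and 65.6 CPM after 4 h of THZ1, against 62.7, 55.8 and 61.9 CPM in DMSO, with a 95% interval of -0.29 to 0.28 for the log2 fold change. SREBF1 had 22.3, 30.2 and 33.1 CPM after THZ1 and 19.6, 30.3 and 18.5 CPM in DMSO, and SCAP had 94.1, 133 and 119 CPM after THZ1 and 79.9, 112 and 83 CPM in DMSO. Both overlapped with DMSO and neither passed (adjusted p = 0.278 for SREBF1 and 0.164 for SCAP), though SCAP did without DMSO replicate 2 (0.50, adjusted p = 0.0494). INSIG2 had 13.2, 12.5 and 15.3 CPM after THZ1, below its DMSO libraries at 17, 17 and 17.4 CPM, but its log2 fold change of -0.33 did not pass (adjusted p = 0.0752). FASN had 33.6, 73.5 and 49.7 CPM after THZ1 and 26.7, 87.4 and 36.1 CPM in DMSO, within one range. Libraries of 14 genes lay wholly above and of 4 genes wholly below DMSO, against 21.1% and 28.2% of all genes tested. Without the 5 libraries that stood apart, 16 genes rose and 5 fell, where 24.4% of all genes tested rose and 28.8% fell. The slope on exonic length was 2.86 and 2.75 in the kept THZ1 4 h libraries and 2.53 in both kept DMSO libraries. Slope and treatment cannot be told apart in that setting.

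After 4 h of YKL-5-124, 0 of the 32 genes rose and 0 fell against DMSO by edgeR's test, where 0.0553% of all genes tested rose and 0.463% fell. DESeq2 also called 0 in either direction, where it called 0.512% of all genes tested higher and 2.05% lower. At an unadjusted p under 0.05 in edgeR, 1 gene (TM7SF2) was higher and 3 (INSIG1, SQLE and HMGCS1) were lower. The share of all genes at that unadjusted threshold was not counted. INSIG1 had 15.6, 13.9 and 13.1 CPM after YKL-5-124, against 25.4, 17.7 and 20.9 CPM in DMSO. All treated libraries of INSIG1 lay below DMSO, with a log2 fold change of -0.58 ± 0.176 (adjusted p = 0.185). HMGCS1 had 52, 47.1 and 45 CPM, against 62.7, 55.8 and 61.9 CPM in DMSO, also without overlap, and gave -0.32 ± 0.134 (adjusted p = 0.41). SQLE had 141, 124 and 114 CPM, against 172, 135 and 155 CPM in DMSO, and gave -0.29 ± 0.111 (adjusted p = 0.358).

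The remaining genes of the control group and of fatty acid synthesis overlapped with DMSO after 4 h of YKL-5-124, apart from INSIG2. SREBF1 had 17, 26.6 and 27.5 CPM and SREBF2 89.1, 122 and 133 CPM after YKL-5-124, against 19.6, 30.3 and 18.5 CPM and 87.3, 114 and 86.7 CPM in DMSO. SCAP had 76.4, 118 and 124 CPM, against 79.9, 112 and 83 CPM in DMSO. INSIG2 had 16.9, 16.2 and 15.2 CPM, against 17, 17 and 17.4 CPM in DMSO, a gap of -0.09 on the log2 scale. FASN had 24.3, 65.1 and 58.4 CPM, against 26.7, 87.4 and 36.1 CPM in DMSO, and SCD had 384, 647 and 535 CPM, against 452, 481 and 358 CPM in DMSO. Without the 5 libraries that stood apart, 9 genes rose and 7 fell after 4 h of YKL-5-124, INSIG1, HMGCS1 and SQLE among those that fell (-0.77, -0.44 and -0.46). In that setting 13.6% of all genes tested rose and 15.3% fell as well. The slope on exonic length was 2.79 and 2.65 in the kept YKL-5-124 4 h libraries and 2.53 in both kept DMSO libraries. Slope and treatment cannot be told apart in these calls. Libraries of 2 genes lay wholly above and of 3 wholly below DMSO, against 6.62% and 9.54% of all genes tested.

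**Figure D5:**
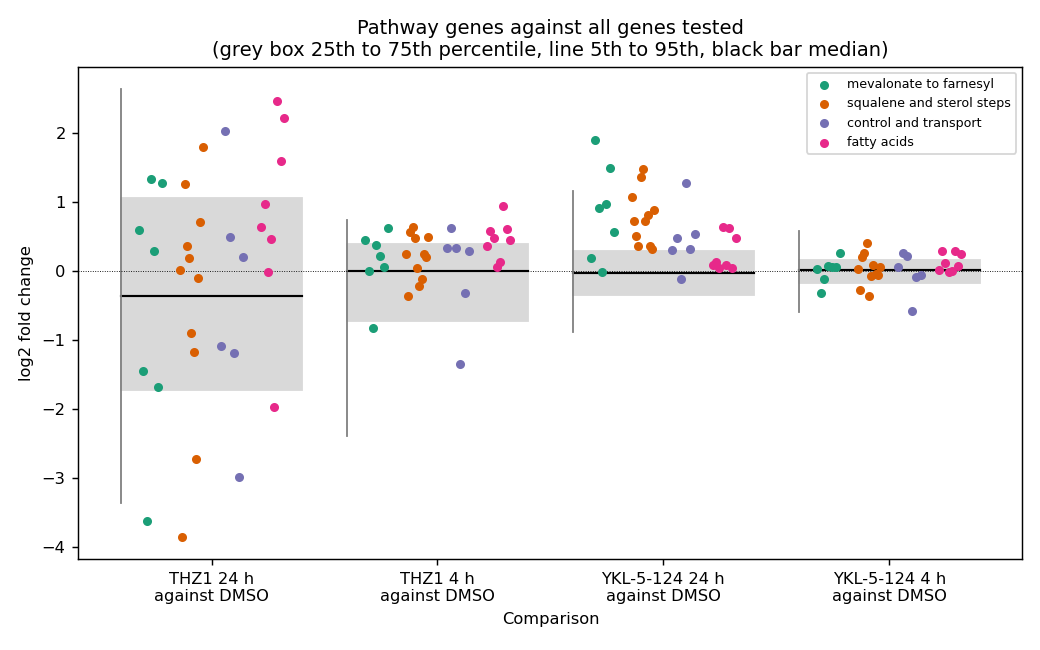
Log2 fold change against DMSO of the 32 genes (points, coloured by role) in the 4 comparisons, over the spread of all genes tested (grey box from the 25th to the 75th percentile, line from the 5th to the 95th, black bar at the median). After 24 h of YKL-5-124 the mevalonate and sterol genes lie mostly above the box, and after 24 h of THZ1 the points spread on both sides, with medians of 0.24 for the 32 genes and -0.365 for all genes that become -0.88 and -1.49 with library totals.

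The compounds were compared directly at matched dose and time, with p-values adjusted over all genes tested. After 24 h, 13 of the 32 genes were higher with THZ1 than with YKL-5-124 and 14 were lower, against 31.8% and 44.1% of all genes tested, and 5 did not pass. With library totals 3 were higher and 27 lower, where 13.8% of all genes tested were higher and 68.6% lower. The largest differences were lower levels in THZ1 of SQLE (-4.58 ± 0.134, adjusted p = 3.02e-12) and MVK (-4.54 ± 0.244, adjusted p = 2.1e-10), and higher levels of SCD (1.84 ± 0.229, adjusted p = 2.59e-06) and FADS2 (1.73 ± 0.168, adjusted p = 1.51e-07). SQLE stood at 10.4 to 11.2 CPM with THZ1 and at 234 to 269 CPM with YKL-5-124. By role, 4 mevalonate genes, 6 sterol genes and 3 control genes were lower with THZ1 and 5 of 8 fatty acid genes were higher, ELOVL6 being the 1 fatty acid gene that was lower. With library totals ACLY (-0.73) and ACSS2 (-0.43) of those 5 were lower instead. CYP51A1, FASN, ACACA, EBP and STARD4 did not pass, and their 95% intervals were wide: -0.52 to 0.51 for CYP51A1 and -1.13 to 0.79 for FASN. EBP was called lower with THZ1 without THZ1 24 h replicate 1 or YKL-5-124 24 h replicate 3 (adjusted p = 0.00344 and 0.0314), and STARD4 without YKL-5-124 24 h replicate 3 (adjusted p = 0.0475).

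After 4 h, 6 of the 32 genes were higher with THZ1 than with YKL-5-124 and 2 were lower, against 11.4% and 21.9% of all genes tested. The count of 6 fell to 3 without THZ1 4 h replicate 3 or without YKL-5-124 4 h replicate 1, where 6.71% and 10% of all genes tested were higher. It was 12 without the 5 libraries that stood apart, where 22.6% of all genes were higher. With library totals 1 was higher and 4 were lower, where 1.38% and 28.8% of all genes were. INSIG1 (7.11 to 9.96 CPM with THZ1, 13.1 to 15.6 CPM with YKL-5-124) was lower by -0.77 ± 0.181 on the log2 scale (adjusted p = 0.00402). MVK was lower by -0.71 ± 0.188 (adjusted p = 0.00873). SCD (0.66 ± 0.223, adjusted p = 0.0332) and FADS1 (0.54 ± 0.09, adjusted p = 0.000286) were higher with THZ1, but the SCD call was lost without THZ1 4 h replicate 2 or 3 or YKL-5-124 4 h replicate 1 or 3 (adjusted p = 0.0742 to 0.199). For SQLE the compounds differed by -0.08 at 4 h with a 95% interval of -0.31 to 0.16, and for IDI1 by 0.00 with an interval of -0.43 to 0.44.

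Within THZ1, 11 of the 32 genes were higher at 24 h than at 4 h and 11 were lower, against 31.4% and 35.7% of all genes tested, and with library totals 4 were higher and 23 lower, where 15.8% and 56.5% of all genes were. SQLE (10.4, 11.2 and 10.2 CPM at 24 h, 124, 110 and 125 CPM at 4 h) and MVK fell most with time, by 3.50 and 2.79 on the log2 scale (SE 0.129 and 0.246, adjusted p = 1.95e-11 and 8.33e-08). FADS2 and SCD rose most, by 1.76 ± 0.169 and 1.52 ± 0.227 (adjusted p = 2.08e-07 and 2.42e-05). INSIG1, low at both times, differed by 0.16 between them with a 95% interval of -0.25 to 0.57. Within YKL-5-124, 13 genes were higher at 24 h than at 4 h and 0 were lower, against 9.22% and 11.9% of all genes tested. HMGCS1 (244, 239 and 189 CPM at 24 h, 52, 47.1 and 45 CPM at 4 h) and INSIG1 rose most, by 2.22 ± 0.139 and 1.85 ± 0.179 (adjusted p = 2.47e-07 and 1.15e-05). The lower count was 1 without YKL-5-124 4 h replicate 1 and 2 without the 5 libraries that stood apart, where 9.24% and 22.8% of all genes tested were lower. DESeq2 called 0 lower, where it called 13.7% of all genes lower. In edgeR 0 were lower at an unadjusted p under 0.05, a threshold at which the share of all genes was not counted.

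The change with time differed between the compounds for 23 of the 32 genes by the interaction term of the same fit. It was higher for THZ1 in 8 genes and lower in 15, against 26.6% and 31% of all genes tested, and with library totals 0 were higher and 25 lower, where 10.8% and 54.7% of all genes were. SQLE (-4.50 ± 0.17, adjusted p = 2.26e-10) and MVK (-3.82 ± 0.309, adjusted p = 7.28e-08) had the largest negative terms, and FADS2 (1.53 ± 0.234, adjusted p = 4.71e-05) and SREBF2 (1.18 ± 0.238, adjusted p = 0.000578) the largest positive ones. The count of 8 fell to 5 without THZ1 4 h replicate 2 or without YKL-5-124 24 h replicate 3, where 24.9% and 24.7% of all genes were higher.

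Of 42 other genes of SREBP processing, isoprenoid branches, fatty acid metabolism and sterol storage, 39 were tested. After 24 h of THZ1 17 rose and 16 fell against DMSO, after 4 h of THZ1 16 rose and 4 fell, after 24 h of YKL-5-124 5 rose and 7 fell, and after 4 h of YKL-5-124 0 passed in either direction. Of all genes tested, 32.3% rose and 44% fell after 24 h of THZ1, 16.9% and 25.1% after 4 h of THZ1, 8.92% and 12.7% after 24 h of YKL-5-124, and 0.0553% and 0.463% after 4 h of YKL-5-124. With library totals 6 rose and 27 fell after 24 h of THZ1, 6 and 8 after 4 h of THZ1, and 11 and 5 after 24 h of YKL-5-124, where 15.7% and 64.9%, 4.03% and 32%, and 14.5% and 8.2% of all genes did. The genes named below kept their direction with library totals, but MBTPS1 after THZ1 (0.22, adjusted p = 0.123) and PDSS2 and SOAT1 after YKL-5-124 (-0.39 and -0.34, adjusted p = 0.0723 and 0.108) lost the call. The pair of proteases that release SREBPs split after 24 h of THZ1: MBTPS1, the site-1 protease, rose by 1.35 and MBTPS2, the site-2 protease, fell by 1.19 on the log2 scale. ERLIN2, which acts in degradation at the endoplasmic reticulum, rose by 1.73, and the ubiquitin ligase RNF139 fell by 1.92. NPC2, which moves cholesterol out of lysosomes, had 268, 255 and 233 CPM after 24 h of THZ1, against 46.2, 36 and 42.8 CPM in DMSO. OSBP, an exchanger of sterol at the Golgi, fell by 2.35. In fatty acid elongation HSD17B12 and TECR rose by 2.34 and 2.23, and ELOVL5 fell by 2.78.

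Of 8 genes of SREBP processing, 1 rose, 2 fell and 5 did not pass after 24 h of YKL-5-124. ERLIN1 and ERLIN2 fell by 0.53 and 0.78 (adjusted p = 0.00367 and 2.25e-05). The branches that use farnesyl diphosphate for coenzyme Q moved the other way from most sterol genes: PDSS1 and PDSS2, the subunits of the enzyme that builds its side chain, fell by 0.89 and 0.55. LBR, a second sterol reductase beside TM7SF2, fell by 0.54. MYLIP, a ubiquitin ligase whose gene is a target of the LXR sterol sensors, rose by 0.91, while NR1H3, the gene of LXR alpha, fell by 0.84 and SOAT1, which esterifies cholesterol for storage, by 0.49. CYP27A1, a sterol hydroxylase, had 1.57, 1.17 and 1.7 CPM after YKL-5-124, against 0.355, 0.31 and 0.126 CPM in DMSO, a low level in DMSO that was under the count minimum of 10 there. Outside the YKL-5-124 24 h libraries its level was 0 to 0.516 CPM. The gene reached the count filter through the libraries in which it was high, so its call is no support for a rise. It is counted among the 5 other genes that rose.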

How the data were processed

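RNA sequencing of 15 libraries of PATU-8988T cells gave 1 table, in which the authors deposited raw counts per gene with the exonic length of each gene. The submitters' processing notes name the GRCh38 build and the tools DESeq2 1.24.0, featureCounts 1.5.0-p3 and STAR 2.6.1d. Strand and multiple matches in counting: not given in the sources used here, so overlapping genes and pseudogene copies may share reads. The table held 58676 genes, of which 30731 had at least 1 count; 0 rows named no gene and 0 columns belonged to no sample. Groups and replicate numbers came from the sample titles.

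Of these genes, 14461 passed filterByExpr (minimum count 10, minimum total 15), with 99.9% of the counts. Differences were tested by quasi-likelihood F tests in edgeR 4.0.16 (limma 3.58.1, R 4.3.3) on all 15 libraries, with a term for group alone, TMM scaling, 10 residual degrees of freedom and Benjamini-Hochberg adjustment over all genes tested at 0.05. There were 9 comparisons: 4 against DMSO, 2 between compounds, 2 between times and the interaction. Intervals are at 95%. Depth was 15567057 to 22869590 counts per library. Replicates differed by more than sampling noise (4.26 to 82.4 chi-square units per degree of freedom within groups), so none was counted as a copy. Replicate numbers were not used as a pairing in the main fit, and a replicate block was run as an alternative. Whether the numbers pair the libraries is not labelled. Deviations from group means correlated at a median of 0.225 for the same number and -0.158 for different numbers.

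The 32 genes and all lists were chosen with earlier results of these data known, so none is independent support for a pattern. By rule, values in every library were given for SREBF1, SREBF2, SCAP, INSIG1, INSIG2, HMGCS1, SQLE, FASN and SCD, and for the 3 called genes with the largest change in each direction in each comparison with DMSO; between compounds and times the 2 largest differences in each direction were named. Alternatives were RLE factors, library totals, no filter on low counts, DESeq2 1.42.0, only the groups compared, a replicate block, the slope on exonic length as a covariate and each library left out in turn. The slope centred within groups and the set without 5 libraries were added after the data were seen. Exonic lengths were the same as in GENCODE 29 for 26 of the 32 genes, and starts and ends for 30. Promoter windows came from RefSeq. Some genes of the lists are counted but not reported singly here.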

Additional observations from a re-analysis of the deposited data

Results flagged for a closer look

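The change with time differed between THZ1 and YKL-5-124 for 23 of the 32 genes, by the interaction term of edgeR's quasi-likelihood fit (24 h minus 4 h of THZ1, minus 24 h minus 4 h of YKL-5-124, on the log2 scale). The term was positive in 8 of them and negative in 15, where it was called positive in 26.6% and negative in 31% of all genes tested. With library totals 0 were positive and 25 negative, where 10.8% and 54.7% of all genes were. The treated libraries of both compounds are separate, and DMSO does not enter this term. In the mevalonate steps it was -3.68 for HMGCS1, -3.82 for MVK, -3.17 for IDI1 and -0.83 for MVD, and 1.06 for PMVK. In the sterol steps it was -4.50 for SQLE, -3.33 for HSD17B7, -2.77 for MSMO1, -1.76 for NSDHL, -1.28 for FDFT1 and -1.25 for TM7SF2, and 0.40 for LSS and 0.49 for DHCR7. In control and transport it was -3.07 for INSIG2, -1.69 for INSIG1, -1.67 for SREBF1 and -0.68 for STARD4, and 1.18 for SREBF2. Among the fatty acid genes it was -2.20 for ELOVL6, and 1.53 for FADS2, 1.18 for SCD, 1.00 for FADS1 and 0.55 for ACSS2. The terms of LSS, DHCR7, ACSS2 and FADS1 turned negative with library totals, and leaving out single libraries ended the calls of LSS, DHCR7, STARD4 and ACSS2. HMGCS1 shows the pattern of the large negative terms: 26, 20.6 and 19.1 CPM after 24 h and 62, 52.7 and 65.6 CPM after 4 h of THZ1, against 244, 239 and 189 CPM after 24 h and 52, 47.1 and 45 CPM after 4 h of YKL-5-124.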

How the results depend on the processing

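Of 148 called values of single genes, 145 kept direction and call with RLE factors, 145 with DESeq2, 143 with only the groups compared, 136 without a filter on low counts, 143 without the 5 libraries that stood apart, and 101 with library totals, where 22 turned round. Leaving out each library in turn ended 80 of 1026 calls and reversed 0. With library totals the genes called higher and lower numbered 3 and 5 for THZ1 4 h against DMSO, 6 and 22 for THZ1 24 h against DMSO, 1 and 4 for THZ1 4 h against YKL-5-124 4 h, 3 and 27 for THZ1 24 h against YKL-5-124 24 h, 4 and 23 for THZ1 24 h against 4 h, and 0 and 25 for the interaction. The shares of all genes in that setting are given with each comparison above. The log2 values that library totals turned round were, for THZ1 24 h against DMSO, ACAT2 -0.53, SC5D -0.42, SCAP -0.65, ACLY -0.49 and ACSS2 -0.15. Against YKL-5-124 24 h they were ACAT2 -0.86, FDPS -0.58, LSS -0.51, SC5D -0.89, DHCR7 -0.36, SCAP -0.68, ACLY -0.73 and ACSS2 -0.43. Against THZ1 4 h they were FDPS -0.21, LSS -0.16, SC5D -0.36, ACLY -0.60 and ACSS2 -0.48. For the interaction they were LSS -0.63, DHCR7 -0.55, ACSS2 -0.48 and FADS1 -0.035. The median of all genes after 24 h of THZ1 against DMSO was -1.49 with library totals and -0.365 with TMM factors. Which of the 2 scales is right was not tested.

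With the slope on exonic length as a covariate, which differed between THZ1 24 h and all other groups, ACAT2 (-0.39), SC5D (-0.092) and SREBF1 (0.48) turned round for THZ1 24 h against DMSO. So did ACAT2 (-0.50), SC5D (-0.35) and SREBF1 (0.032) against YKL-5-124 24 h, SC5D (-0.28), SREBF1 (0.11), ACSS2 (-0.50) and ACACA (0.95) against THZ1 4 h, and ACSS2 (-0.29) in the interaction. That covariate gave 5 lower genes for THZ1 4 h against DMSO, where 30.6% of all genes tested were lower. For YKL-5-124 4 h against DMSO it gave 2 higher and 3 lower, where 2.4% and 5.23% of all genes were. THZ1 4 h against YKL-5-124 4 h had 17 higher, where 24.4% of all genes were. YKL-5-124 24 h against 4 h had 22 higher and 1 lower, where 18.2% and 23.4% of all genes were. Centred within groups it gave 1 higher and 3 lower for YKL-5-124 4 h against DMSO, 23 higher for YKL-5-124 24 h against DMSO, 16 higher for THZ1 4 h against YKL-5-124 4 h, and 21 higher and 1 lower for YKL-5-124 24 h against 4 h. Without the 5 libraries, 5 were lower for THZ1 4 h against DMSO, where 28.8% of all genes were. For YKL-5-124 4 h against DMSO 9 were higher and 7 lower, where 13.6% and 15.3% of all genes were. In both comparisons the slope of the kept libraries and the treatment cannot be told apart. In that setting 12 were higher for THZ1 4 h against YKL-5-124 4 h (22.6% of all genes), and 2 lower for YKL-5-124 24 h against 4 h (22.8%). For THZ1 4 h against YKL-5-124 4 h, RLE factors gave 10 higher and DESeq2 11. The share of all genes called higher was also above the 11.4% of the main fit in both settings, at 19.6% with DESeq2. Without a filter on low counts the interaction had 5 higher. In that setting 12.4% of 30731 genes were higher, against 26.6% of 14461 in the main fit, so these shares have different bases. The cause of these moves was not tested.

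Leaving out 1 library at a time gave 10 to 11 higher and 2 to 3 lower for THZ1 4 h against DMSO, 12 to 15 and 11 for THZ1 24 h, and 12 to 15 and 0 for YKL-5-124 24 h; YKL-5-124 4 h stayed at 0. It gave 3 to 9 higher and 2 lower for THZ1 against YKL-5-124 at 4 h, 11 to 13 and 14 to 16 at 24 h, 9 to 11 and 10 to 11 for THZ1 24 h against 4 h, 11 to 14 and 0 to 1 for YKL-5-124 24 h against 4 h, and 5 to 8 and 14 to 16 for the interaction. Libraries with the same replicate number correlated at -0.47 to 0.53 in their deviations from group means (median 0.23, 20 of 30 pairs over 0.1). Those with different numbers correlated at a median of -0.16 (21 of 60 over 0.1), and 9 of 15 libraries correlated best with their own number. The number was not taken as a pairing because not every pair was over 0.1, a rule that cannot show that the libraries are unpaired. With a replicate block all 148 calls held and 19 more values were called. For THZ1 4 h against YKL-5-124 4 h it gave 10 higher genes in place of 6, and 16.2% of all genes in place of 11.4%. With 3 libraries a group, small changes pass unseen: intervals for FASN spanned more than 1.8 log2 units.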
